A study of Mus musculus with 3 samples.

Results

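The transcription factors that turn somatic cells into induced pluripotent stem cells, and genes that have been used in their place, were followed in mouse embryonic fibroblasts (MEF) with and without n-butylidenephthalide (BP, spelled n-Butylenephthalide in the labels), a compound from Angelica sinensis. The 10 genes are Pou5f1, Sox2, Klf2, Klf4, Klf5, Myc, Mycn, Nanog, Esrrb and Glis1, chosen by name, out of 35451 genes with a value on all 3 arrays. Every probe that carries the name of 1 of them was taken, which gave 12 probes. MEF are primary cells grown out of minced mid-gestation embryos, here from C57BL/6 mice, and they had received no reprogramming genes. Total RNA was labeled with Cy3 and put on 1-colour Agilent arrays, 1 array for cells without treatment (control), 1 for cells grown with 10 µg/ml BP (BP10) and 1 for cells grown with 40 µg/ml BP (BP40). The labels give the control no treatment, whereas the study's text names the solvent DMSO for it, and the time in BP before RNA extraction is not given in the sources used here. The question behind the comparison was whether BP changes the RNA of the reprogramming factors in fibroblasts.

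Pou5f1 (Oct4), Sox2, Klf4 and Myc are the classical set of reprogramming factors. Pou5f1 and Sox2 bind DNA together and hold up the regulatory network of embryonic stem cells, and both are silent in fibroblasts. Klf4, a zinc finger factor, and Myc, a growth regulator, are made by fibroblasts themselves. Klf2 and Klf5 can stand in for Klf4, Mycn can stand in for Myc, and Nanog, the nuclear receptor Esrrb and the oocyte factor Glis1 have been added to the set or used in place of a member.

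With 1 array per condition there were no replicates, so no test was possible and each ratio compares 2 arrays. The error given with a ratio is the scanner software's own estimate for the spots, which covers the reading of the spot and not the spread between cultures. All signals are the scanner's processed signal, and ratios were taken on the log2 scale after subtracting the 75th percentile of each array. A gene was called where it differed by 2-fold or more and at least 1 array of the pair showed its probe well above background. Where only 1 array did, the ratio is a bound: the dim side was set to its measured signal or, if higher, to the faintest signal counted as well above background there, which was 37.8 on control, 41.9 on BP10 and 36.6 on BP40. Spots well above background made up 81.7% of gene spots on control, 68.3% on BP10 and 69.1% on BP40. The control array was scanned in another session than the BP arrays, so in every ratio against control the scan session cannot be told apart from BP. The scanner software also divided the signals of both BP arrays, and not those of the control array, by a surface fitted across the array, which ranged from 0.685 to 1.11 on BP10 and from 0.699 to 1.08 on BP40.

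The probes decide which RNA is read, and the sequences of those on which the results below turn are shown 5′ to 3′, whole for Pou5f1 and Klf5 and the first 30 bases for the others. Capitals mark the longest run of letters that also stands in a probe of another gene, where that run has at least 20 letters. Such a run was found in 7.34% of all 55681 gene probes and in 2 of the 12 member probes.
Pou5f1: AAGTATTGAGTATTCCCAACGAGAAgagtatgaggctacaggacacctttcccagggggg
Sox2: tggcaatcaaatgtccattgtttataagct
Klf5: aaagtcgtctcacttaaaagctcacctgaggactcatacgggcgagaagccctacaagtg
Mycn: tgtactaattcctacacggcctgtatactt
Nanog, probe 1: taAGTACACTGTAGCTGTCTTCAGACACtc
Nanog, probe 2: ccatgatgaaccgatgccagctggactagt
Esrrb, probe 1: catgccctgggattatctcccatccagtcc
Esrrb, probe 2: caaaggacattgattattgctaaaggttag
The run of the Pou5f1 probe is 25 letters long and stands in the probe of Pou5f1-rs4, a related copy, which was not well above background on any array (13.9 on control, 8.32 on BP10 and 7.39 on BP40). The run of Nanog probe 1 is 26 letters long and stands in a probe of Zfp872. Among the other member probes the longest such run was 17 letters, in Klf5. All positions below are those of the files, in mouse build mm9, and the exon or UTR a probe lies in was not looked up because no annotation of that build was used here.

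**Figure D1:**
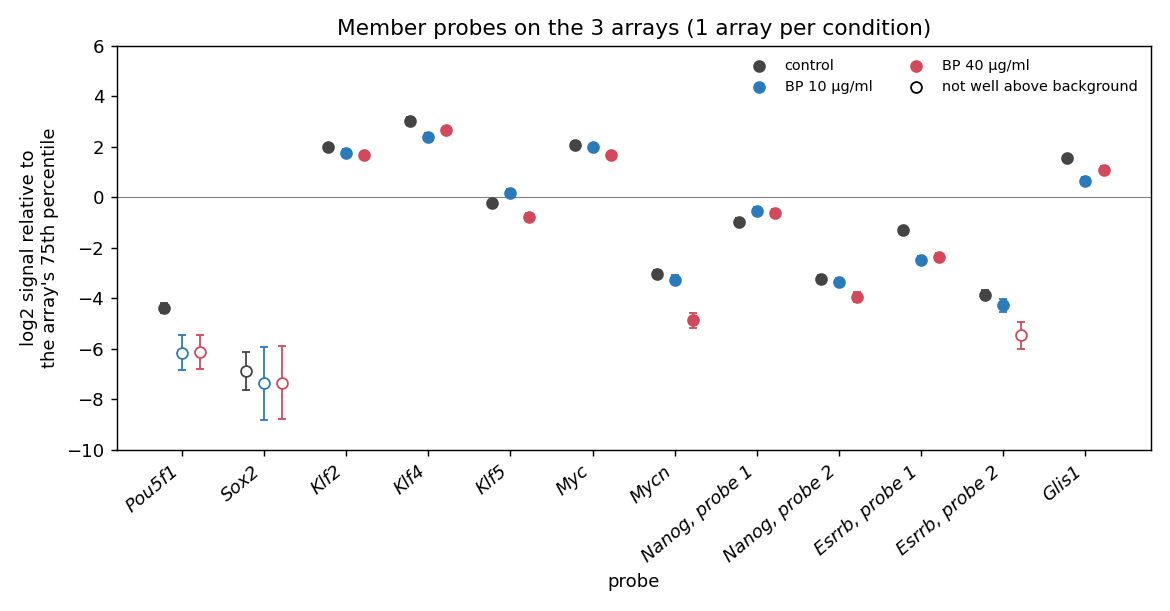
Normalized log2 signal (vertical axis, relative to each array's 75th percentile) of the 12 member probes on the control, BP10 and BP40 arrays, with bars for the scanner's error on each spot and open symbols where the probe was not well above background. Pou5f1 is above background on the control array alone, Sox2 on none, and the probes of Klf2, Klf4, Klf5, Myc, Mycn, Glis1, Nanog and Esrrb probe 1 on all 3 arrays.

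Pou5f1 gave a weak signal on the control array and none well above background with BP. Its probe (chr17:35647280-35647340) had a signal of 83.5 on control, 19.7 on BP10 and 17.5 on BP40, and only the first was well above background. The position covers 61 bases on the genome for a 60-base probe. The probe also lacks a g that the study's Oct4 forward primer has in the stretch they share. Whether this affects the signal was not tested. Taken against the lowest measurable signal in the main setting, Pou5f1 was at least 1.60-fold lower on BP10 and at least 1.59-fold lower on BP40 than on control, and neither bound reached the 2-fold call. With the normexp background correction the log2 ratios were -0.36 and -0.17, smaller drops than these bounds. With scaling on spike-in probes the BP40 ratio was -2.62, and Pou5f1 was among 14664 genes called lower. Without the filter on dim probes it was called lower at both doses, among 6667 genes for BP10 and 5793 for BP40. In the main setting, 20.4% of 6819 genes of like brightness (mean normalized log2 signal from -6 to -4) were called lower for BP10 and 17.7% for BP40. Without the bound the Pou5f1 log2 ratios were -1.77 and -1.73, and 12.4% and 11.5% of those genes had lower ones.

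Sox2 was not detected on any array. Its probe (chr3:34550773-34550832) had a signal of 14.8 on control, 8.47 on BP10 and 7.45 on BP40, and on both BP arrays the scanner software had put a substitute value in place of a signal it could not tell from background. Spots without a target on the same arrays had a median signal of 7.54 on control, 8.99 on BP10 and 7.76 on BP40. The Sox2 probe therefore gives no ratio, and what it allows is an upper limit, a signal under the 36.6 to 41.9 at which probes began to be called well above background.

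Klf4, the KLF factor of the classical set, was detected on all 3 arrays and had less signal with BP at both doses. The probe (chr4:55540167-55540226, minus strand) had a signal of 14374 on control, 7339 on BP10 and 7676 on BP40. After scaling, Klf4 was 1.57-fold lower on BP10 (log2 ratio -0.65, error 0.20) and 1.30-fold lower on BP40 (-0.38, error 0.20), both beyond the scanner error and under the 2-fold call. Among 3686 genes of its brightness class (mean normalized log2 signal from 2 to 4), 3.55% had a lower ratio for BP10 and 8.41% for BP40.

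Klf2, which holds embryonic stem cells in the naive state together with Klf4, moved less. Its probe (chr8:74845137-74845196) had a signal of 6906 on control, 4782 on BP10 and 3864 on BP40. The log2 ratio was -0.21 for BP10 and -0.32 for BP40, each with an error of 0.20. The first is barely larger than that error, and it became -0.35 when the signals before the spatial division were used.

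Klf5, a KLF factor of epithelia and of the early embryo, was the member whose ratios against control had opposite signs at the 2 doses. Its probe spans an intron (chr14:99702656-99712388, 9733 bases on the genome for a 60-base probe) and therefore reads spliced RNA. The signal was 1473 on control, 1589 on BP10 and 707 on BP40. BP10 stood 1.34-fold above control (log2 ratio 0.42, error 0.20) and BP40 1.45-fold below it (-0.54, error 0.20). Between the BP arrays, which were scanned together, Klf5 was 1.95-fold lower on BP40 (-0.96, error 0.20), and 1.80% of the 5065 genes of its brightness class (-2 to 0) had a lower ratio. That ratio lies at the edge of the 2-fold call and passed it when the arrays were scaled on probes above background on all arrays (-1.04).

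Myc was bright on all 3 arrays, and its probe was printed at 2 places on each. The probe (chr15:61821417-61821476) read 7153 and 7447 on control, 5612 and 5603 on BP10, and 3978 and 3861 on BP40. The repeat spots of an array lay close together, and the 3 arrays did not overlap before scaling. After scaling, Myc on BP10 did not differ from control beyond the scanner error (log2 ratio -0.06, error 0.14) and was 1.30-fold lower on BP40 (-0.37, error 0.14). Between the BP arrays the log2 ratio was -0.31 with an error of 0.14.

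Mycn, the MYC family member of the early embryo and of neural progenitors, had the largest ratio among the members that were measured on both arrays. Its probe (chr12:12943193-12943252, minus strand) had a signal of 212 on control, 146 on BP10 and 41.5 on BP40. Control and BP10 did not differ beyond the scanner error (log2 ratio -0.22, error 0.23), and the sign of that ratio turned to 0.13 with quantile normalization. On BP40, Mycn was 3.56-fold lower than on control (-1.83, error 0.34) and 3.05-fold lower than on BP10 (-1.61, error 0.34), and it was called in both comparisons. The BP40 signal lay close to the lowest measurable signal of that array, 36.6. Of the 7138 genes in its brightness class (-4 to -2), 1.75% had a lower ratio for BP40 against control and 1.26% for BP40 against BP10. With the normexp background correction the ratios were -0.76 and -0.78, and Mycn was not called.

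Esrrb, a nuclear receptor that acts with Nanog in embryonic stem cells, was the member called lower at both doses. Probe 1 (chr12:87862509-87862568) had a signal of 704 on control, 252 on BP10 and 238 on BP40. Both BP arrays were low and close to each other (log2 ratio 0.13, error 0.22). Against control, Esrrb was 2.24-fold lower on BP10 (-1.17, error 0.21) and 2.06-fold lower on BP40 (-1.04, error 0.21). The brightness class of Esrrb leaned lower as a whole: 21.8% of its 7138 genes were called lower for BP10 and 20.8% for BP40, with medians of -0.42 and -0.39. After the class median was subtracted the Esrrb ratios were -0.74 and -0.65. Quantile normalization gave -0.97 and -0.85, normexp gave -0.89 and -0.77, and none of these was called.

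Esrrb probe 2 (chr12:87856069-87856128) carries the name Esrrb in the newer annotation of the BP files only, through a cDNA accession. It had a signal of 121 on control, 72.0 on BP10 and 27.6 on BP40, the last not well above background. Its log2 ratio was -0.43 with an error of 0.31 for BP10, and on BP40 it was at least 2.30-fold lower than on control. Both probes were lower with BP, but probe 1 had its full drop at BP10 and probe 2 most of its drop at BP40. With the median of both probes, Esrrb had -0.80 for BP10, which is not called, and -1.32 for BP40.

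Nanog, the homeobox factor that stabilizes the pluripotent state, was read by 2 probes that differed in direction. Probe 1 (chr6:122663676-122663735), the one with the run shared with Zfp872, had a signal of 897 on control, 974 on BP10 and 796 on BP40. Scaled, it was 1.35-fold higher on BP10 (log2 ratio 0.43, error 0.20) and 1.28-fold higher on BP40 (0.35, error 0.20), although the BP40 ratio turned to -0.54 when the arrays were scaled on spike-in probes. Probe 2 (chr6:122664590-122664649) had a signal of 183 on control, 136 on BP10 and 78.7 on BP40. It did not differ from control beyond the scanner error on BP10 (-0.11, error 0.23) and was 1.62-fold lower on BP40 (-0.70, error 0.25). At BP40 the probes thus moved apart, and their median gave a ratio of -0.17. The Zfp872 probe had log2 ratios of 0.89 for BP10 and 1.07 for BP40, and whether its RNA adds to Nanog probe 1 was not tested. Whether Nanog probe 1 lies in a repeated sequence was not settled either, so its signal may not be Nanog RNA alone. A further probe, named Nanogpd in the files, lists a Nanog accession and lies 102 bases before Nanog probe 1 (chr6:122663514-122663573). It was looked at after the values were known and had a signal of 75.9 on control, 48.6 on BP10, where it was not well above background, and 77.7 on BP40. Scaled, its log2 ratios against control were -0.33 for BP10, from that dim signal, and 0.56 for BP40.

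Glis1, a zinc finger factor of the oocyte that can take the place of Myc, was detected on all 3 arrays and was lower with BP. Its probe (chr4:107307603-107307662) had a signal of 5074 on control, 2214 on BP10 and 2595 on BP40. Glis1 was 1.84-fold lower on BP10 (log2 ratio -0.88, error 0.20) and 1.36-fold lower on BP40 (-0.44, error 0.20), and of the 4436 genes in its class (0 to 2), 3.43% had a lower ratio for BP10. The spot lies where the spatial surface was low, at 0.806 on BP10 and 0.901 on BP40, and without the division the ratios were -1.19, which passes the 2-fold call, and -0.60. With the normexp background correction the BP10 ratio was -1.17, which also passes it.

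**Figure D2:**
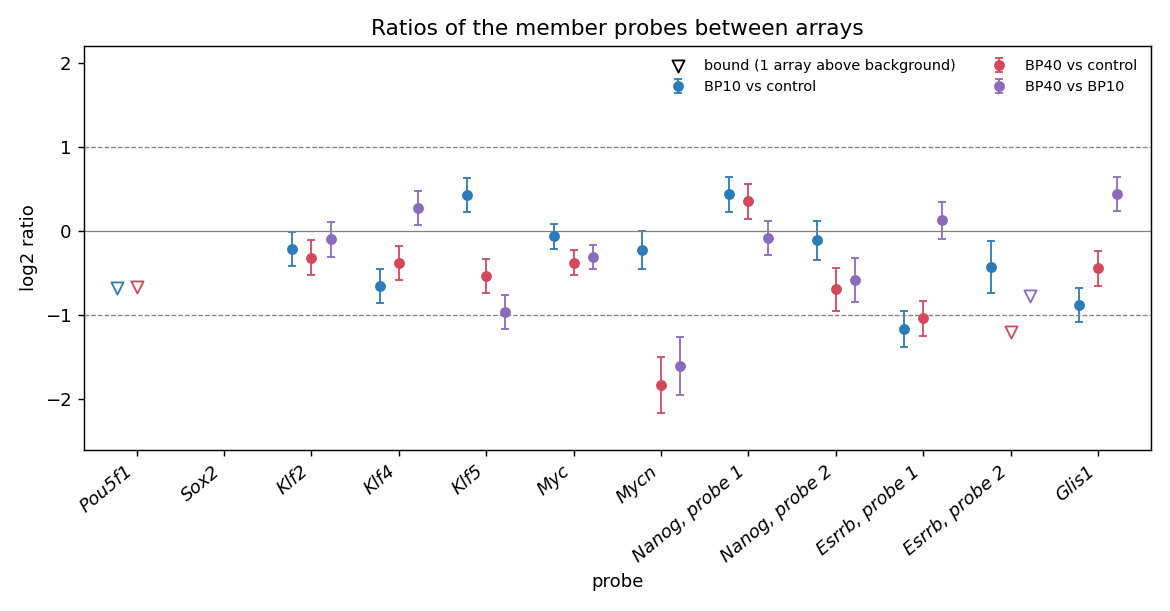
Log2 ratios of the 12 member probes of both BP arrays against control and of BP40 against BP10, with bars for the scanner's error of the ratio, open triangles for bounds and dashed lines at 2-fold. Mycn lies below -1 in both comparisons of BP40 and Esrrb probe 1 in both comparisons against control. Esrrb probe 2 lies below -1 as a bound for BP40 against control, and no probe lies above 1.

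Counted over genes, with the brighter probe for Nanog and Esrrb, 0 of the 10 members were called higher and 1 lower for BP10, 0 and 2 for BP40, both against control, and 0 and 1 for BP40 against BP10. Over all 35451 genes, 2.6% were called higher and 10.3% lower for BP10, 2.5% higher and 9% lower for BP40, and 1.88% higher and 1.77% lower for BP40 against BP10. The members' counts are too small to be set apart from these shares. The split over all genes against control also depended on the scaling, with 923 higher and 3642 lower for BP10 and 886 and 3190 for BP40 in the main setting, against 1882 and 1593, and 1812 and 1478, after quantile normalization. Scaling the arrays on spike-in probes moved the median of all genes for BP40 against control by -0.89. Under that scaling Pou5f1 (as a bound), Klf2, Klf4, Klf5, Myc and Glis1 also passed the 2-fold call on BP40. Over the 8 members measured on both arrays, the median log2 ratio was -0.22 for BP10, beside -0.17 for all genes so measured, and -0.41 for BP40, beside -0.06. For BP40 against BP10 it was -0.09, beside 0.09. With Pou5f1 and Sox2 included, whose signals with BP were below background, the values were -0.36, -0.46 and -0.03, beside -0.23, -0.11 and 0.06 for all genes. Of the 8 members, 6 had a ratio below 0 for BP10 and 7 for BP40, where 64.0% and 55.1% of all genes measured on both arrays did. These comparisons share the control array, so that the counts at the 2 doses are not separate evidence.

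**Figure D3:**
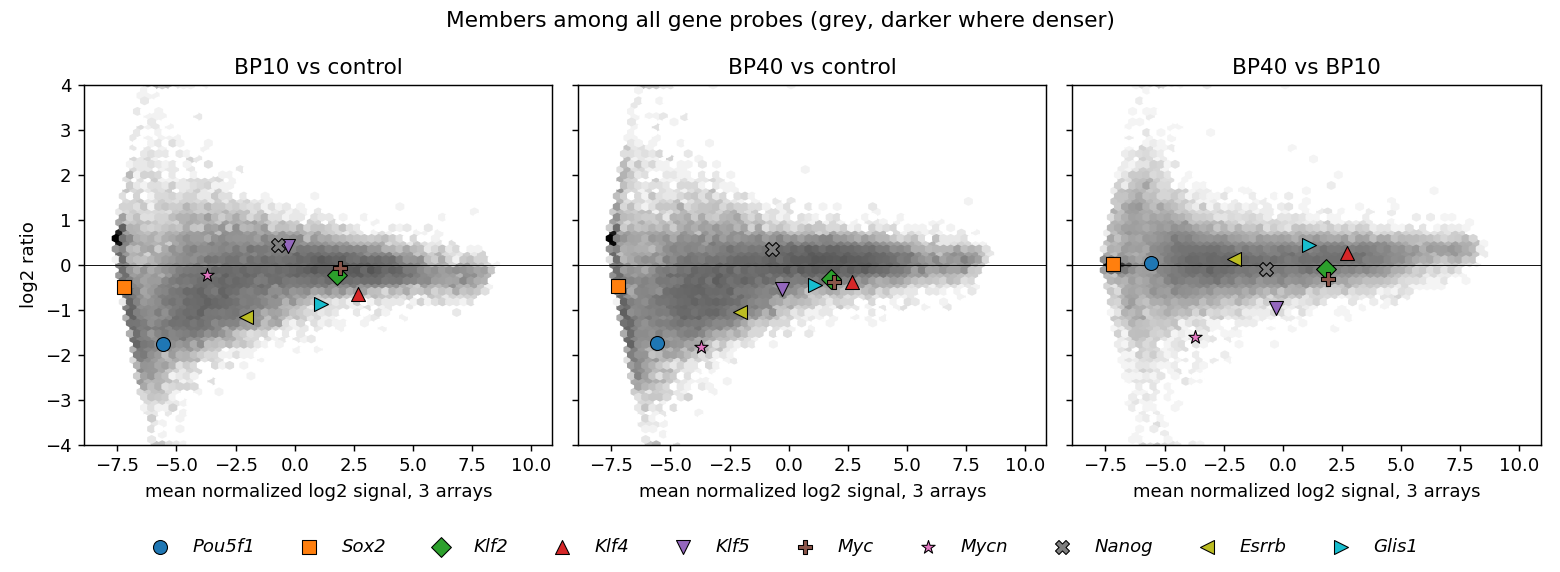
Log2 ratio (vertical axis) against mean normalized log2 signal over the 3 arrays (horizontal axis) for all genes in grey, with the 10 members as coloured symbols, for the 3 comparisons. Against control the cloud of dim genes leans below 0 and Pou5f1 and Esrrb lie within it, whereas Mycn lies at its lower edge in both comparisons of BP40.

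The brightness of a probe depends on its sequence as well as on the RNA, so places within an array are descriptions of the probe. On the control array, the Klf4 probe was brighter than 90.8% of gene probes, Myc than 86.8%, Klf2 than 86.4%, Glis1 than 84.3% and Klf5 than 74.5%. Nanog probe 1 and Esrrb probe 1 stood at 69.9% and 67.4%, Mycn at 50.1% and Pou5f1 at 32.3%, and Sox2 is given no place because it was below background. The genes with the most similar levels over the 3 arrays, by Euclidean distance among 19568 RefSeq-named genes, were Olfr98, Prok1 and Olfr1105 for Pou5f1 (distances 0.10 to 0.15), whose own values on both BP arrays were below background. Olfr genes encode odorant receptors. None are given for Sox2, since its level and those of its nearest genes were below background on every array. For Klf4 they were Ptx3, Tmem215 and Leo1 (0.10 to 0.16) and for Myc they were Lss, Dnajc13 and Gpc4 (0.06 to 0.09), all of them above background on the 3 arrays. Within a distance of 0.25 lay 8 genes for Pou5f1, 24 for Klf4 and 58 for Myc.

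The start regions of the members, short windows around the start in RefSeq (GRCm38.p6), differed in their content of CpG, the dinucleotide at which DNA is methylated. Entries were found for 8 members, and Klf5 and Myc were missing. Glis1 held 47 CpG, Klf4 40, Klf2 32 and Sox2 27, more than 84.5% to 98.6% of all 32851 start regions. Mycn held 14, Pou5f1 11 and 6 at its pair of starts, Esrrb 7 at both of its starts and Nanog 4, where the median over all start regions was 7. Of the CpG-rich members, Glis1, Klf4 and Klf2 were detected on all arrays and Sox2 on none.

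Genes around the members were described through lists written from general knowledge. Their counts stand beside 2.6% of all genes called higher and 10.3% lower for BP10, and 2.5% and 9% for BP40. The medians of all genes were -0.23 and -0.11. Among genes with a mean normalized log2 signal from -4 to -2, 21.8% and 20.8% were called lower. The counts called in these lists are too small to be set apart from such shares. Of 20 pluripotency network genes on the array, 2 were called higher and 4 lower for BP10, and 1 higher and 1 lower for BP40, with medians of -0.16 and -0.01. Utf1, a chromatin protein of embryonic stem cells, had a signal of 2048 on control, 679 on BP10 and 587 on BP40, which is 2.42-fold and 2.43-fold lower. Tfcp2l1, a factor of naive pluripotency, was not above background on control (37.0) and had 247 on BP10 and 121 on BP40, at least 8.12-fold and at least 4.60-fold higher, although its second probe was below background on all arrays. The genes of this list that were called thus lay in both directions.

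Among relatives of the members, 0 of 14 KLF genes were called higher and 2 lower for BP10, and 0 and 3 for BP40. Klf17, a KLF gene of germ cells and the early embryo, was lower at both doses (841 on control, 300 on BP10 and 226 on BP40), and its second probe was lower too, with log2 ratios of -1.82 and -1.67. The KLF list had a median of -0.13 for BP10 and -0.55 for BP40. Of 19 SOX genes, 1 was called higher and 2 lower for BP10, and 0 and 2 for BP40, with medians of -0.66 and -0.41. These medians include 5 SOX genes above background on no array. The BP10 median is the ratio of 1 of them, Sox8 (18.8 on control, 9.52 on BP10 and 8.37 on BP40), and is not a measured drop. Sox17, a factor of endoderm and endothelium, had 294 on control, 102 on BP10 and 86.0 on BP40. Of 14 POU genes, 0 were called higher at either dose, 2 lower for BP10 and 1 for BP40, with medians of -0.31 and -0.32. The gene called at both doses was Pou4f3, a factor of inner ear hair cells, with 139 on control and no signal well above background on either BP array.

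None of the 14 partners and antagonists of MYC was called at either dose, and Max, with which MYC proteins pair on DNA, had log2 ratios of -0.10 and -0.05. Mnt, an antagonist that competes for Max, had -0.00 for BP10 and -0.49 for BP40. Of 20 MYC target genes, 2 were called higher and 0 lower at each dose, with list medians of -0.02 and -0.04, where 2.6% and 2.5% of all genes were called higher. A list of this size is too short to be set apart from those shares. The called pair was Cad, which starts pyrimidine synthesis (151 on control, 332 on BP10 and 220 on BP40), and Tert, the catalytic part of telomerase (228, 403 and 349).

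Of 21 other reprogramming factors and substitutes, 0 were called higher and 2 lower for BP10, and 1 higher and 0 lower for BP40, with medians of -0.08 and 0.03. The gene called higher was Nr5a2, a nuclear receptor that can take the place of Pou5f1 in reprogramming, and it is named here after its values were seen. Its brighter probe had a signal of 100 on control, 21.7 on BP10, where it was not well above background, and 1500 on BP40, which is 21.4-fold above control and at least 41.4-fold above BP10. Its second probe did not show this, with 86.8 on control, 32.2 on BP10 and 44.3 on BP40. Rarg and Ubtf, the brightest genes of that list, were within 2-fold at both doses. None of 18 reprogramming barriers was called at either dose, and their medians were -0.13 and 0.01. Cdkn1a, the p53-driven cell cycle inhibitor that slows reprogramming, had log2 ratios of -0.17 and 0.36 with its brightest probe. Its other 2 probes had 0.82 and 0.57 for BP10 and -0.05 and -0.07 for BP40, so the probes differed at both doses. Mbd3, a subunit of the NuRD repressor, had -0.02 and 0.06 with its brighter probe and 0.98 and 0.75 with its second, which was above background on all arrays as well.

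**Figure D4:**
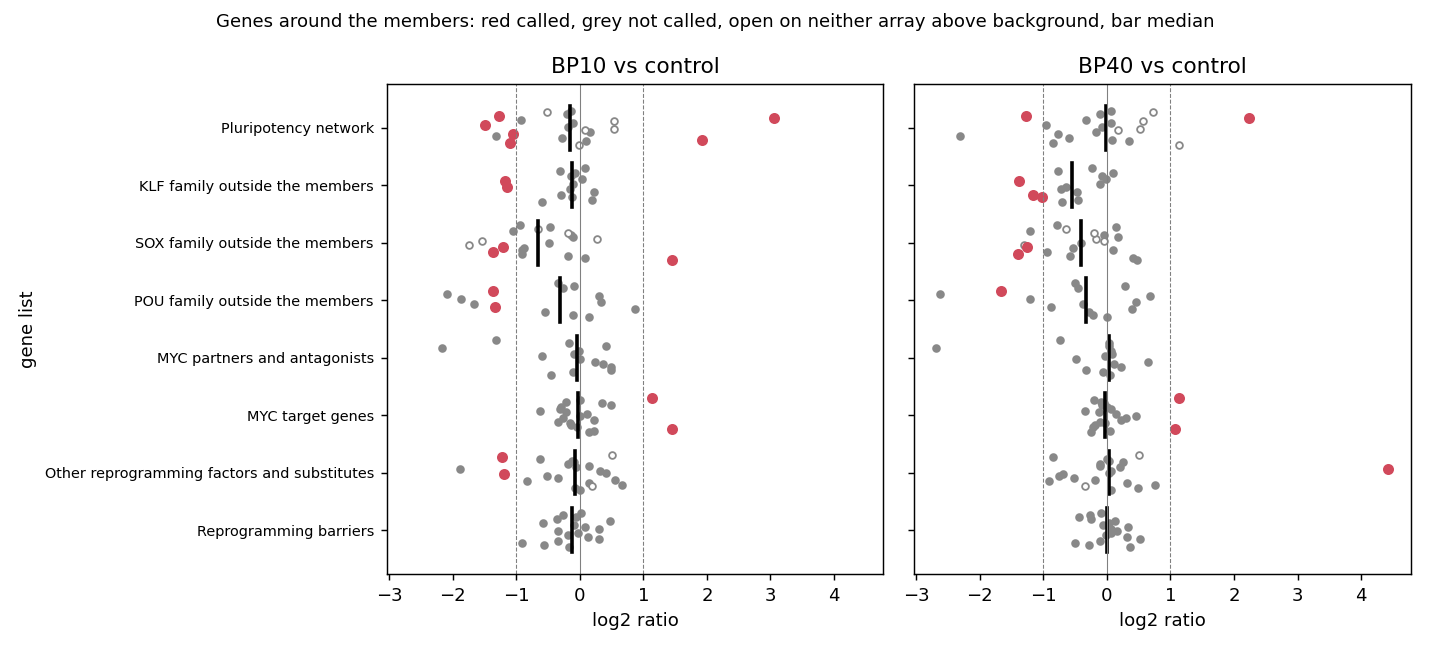
Log2 ratios of the genes of 8 lists around the members for BP10 and BP40 against control, with called genes in red, the median of each list as a black bar and dashed lines at 2-fold. Filled grey symbols beyond the dashed lines are genes above background on 1 of the 2 arrays whose bound was under 2-fold, open symbols are genes above background on neither, and the medians of all 8 lists lie between -0.66 and 0.03. The lowest median, that of the SOX list for BP10, is the ratio of Sox8, which was above background on neither array.

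The cells carried the markers of fibroblasts. All 14 fibroblast markers on the array, among them Col1a1, Thy1, Pdgfra and Vim, were above background on the 3 arrays, with a summed level of 1333 on control, 950 on BP10 and 1006 on BP40 in units of each array's 75th percentile. Lum and Dcn, proteoglycans of the matrix, were called lower for BP10, and Lum and the collagen Col3a1 for BP40, with list medians of -0.53 and -0.54. Lum fell furthest, from a signal of 2543 on control to 223 on BP10 and 383 on BP40. Markers of macrophages (11 of 11, summed 37.4, 31.5 and 34.9), neural progenitors (7 of 10, summed 21.0, 20.4 and 20.5), skeletal muscle (5 of 8, summed 15.5, 15.7 and 16.9), endothelium (5 of 8, summed 8.57, 6.84 and 8.70) and epithelium (7 of 10, summed 7.02, 7.34 and 5.71) were also above background on all arrays, and whether their RNA came from other cells or from the fibroblasts was not tested. Epcam and Cdh1 of epithelium, Cdh5 of endothelium, Myf5 of muscle and Sox3 and Olig2 of neural progenitors were not above background on any array. Of 9 germ cell markers, cells that do express Pou5f1, 6 were above background on control, 5 on BP10 and 4 on BP40, with a summed level of 2.31, 1.36 and 1.69. Some sums rest mostly on 1 bright probe and do not describe the list as a whole. On control, Nanos3 had a signal of 3411 and Ddx4, the next germ cell marker, 161. In the muscle list Acta1 had 25813 and Actc1, the next, 414. In the endothelial list Kdr had 14098 and Pecam1, the next, 303. In the macrophage list Itgam had 40148.5 and Csf1r, the next, 10496. Dazl and Prdm14 of the germ cell list were below background on every array. Ddx4 was called lower at both doses (161 on control, 58.4 on BP10 and 29.1 on BP40, the last not well above background). Sycp3 went the other way and was called higher on BP40 (56.2), with no signal well above background on control (34.4) or BP10 (8.71). The part of germ cells in the Pou5f1 signal was not tested. The summed levels of the fibroblast, macrophage and neural progenitor lists were highest on control too. Of these, the fibroblast list alone also had its highest median normalized log2 level there (4.19, then 3.99 on BP10 and 3.94 on BP40). The medians were -0.04, 0.34 and 0.17 for macrophages and -2.69, -1.57 and -2.30 for neural progenitors. In such bulk RNA, fewer cells of a type and less RNA per cell cannot be told apart.

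**Figure D5:**
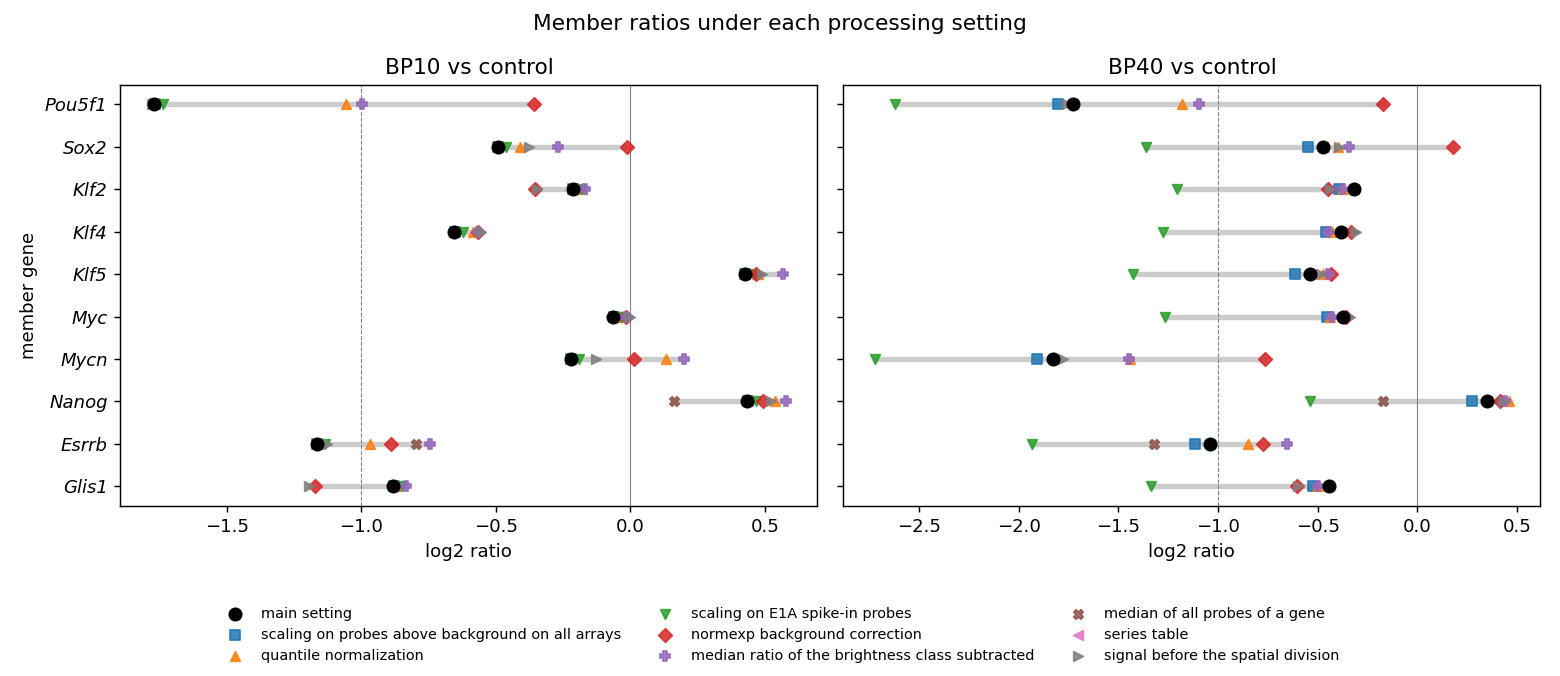
Log2 ratio of each member gene (horizontal axis) for BP10 and BP40 against control in the main setting (black circle) and under the other processing settings (coloured symbols), with a grey bar from the lowest to the highest value and a dashed line at 2-fold lower. The ratios of Klf4, Klf5 and Myc for BP10 moved by less than 0.2, those of Pou5f1 moved most, and scaling on spike-in probes lowered every BP40 ratio.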

How the data were processed

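Per the file headers, Feature Extraction 10.5.1.1 gave the authors a processed intensity per spot, background-corrected, spatially detrended on the BP arrays and unscaled across arrays. The series table repeats it for 100% of the spots (relative tolerance 0.0001), with 0 columns unmapped. From these, log2 intensity minus the array's 75th percentile over gene spots was taken, leaving out outlier spots. Spots of a probe were averaged. Accessions gave a RefSeq symbol to 26425 of 55681 gene probes, the others kept the file's name, and a gene by its probe above background on most arrays, then the brightest. Calls needed a 2-fold ratio. Similar genes were the 3 nearest in level. List genes named were those called the same way at both doses, or otherwise the brightest pair. Members and lists were chosen with earlier results of these data known. 12 alternatives were run with Python 3.11.15, numpy 2.4.6, pandas 2.3.3, and R 4.3.3 with limma 3.58.1 for normexp (offset 50). Calling was tested on simulated data beforehand. Precision is limited by 1 array per condition.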

Additional observations from a re-analysis of the deposited data

Results flagged for a closer look

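Klf5 was singled out because its ratios against control had opposite signs at the 2 doses, each beyond the scanner error. Its log2 ratio against the control array was 0.42 at 10 µg/ml and -0.54 at 40 µg/ml. The difference between the doses was not tested, since each condition has 1 array. The signs were the same under each alternative that changed the ratio, with a range of 0.42 to 0.57 for BP10 and of -1.43 to -0.43 for BP40.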

How the results depend on the processing

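No paired analysis was possible because there is 1 array per condition, and for that reason none could be left out. The number of members called lower for BP10 against control was 1 in the main setting, 4 with a threshold of 1.5-fold, 0 with 3-fold, 2 without the filter on dim probes, 0 with quantile normalization, 0 after subtracting the median of the brightness class, 0 with the median over a gene's probes, 1 with normexp, where Glis1 (-1.17) was called in place of Esrrb, and 2 with the signal before the spatial division, an alternative chosen after seeing the data. For BP40 against control it was 2, and became 3 with 1.5-fold and 3 without the filter on dim probes (Pou5f1 added in both), 1 with 3-fold, 1 with quantile normalization, 8 (all members except Sox2 and Nanog) with scaling on 8 E1A spike-in probes, 0 with normexp and 1 after subtracting the class median. For BP40 against BP10 it was 1, and became 2 with 1.5-fold, 2 with scaling on the probes detected on every array, 5 with spike-in scaling, 0 with normexp and 2 after subtracting the class median. The members' median over all 10, dim ones included, moved to -1.35 for BP40 against control and to -0.95 for BP40 against BP10 with spike-in scaling, which moved the median of all genes by -0.89 and -0.92 and gave 134 higher and 14664 lower calls for BP40. Normexp moved the median of all genes by 0.14 for BP10 and 0.18 for BP40, and quantile normalization by 0.19 and 0.11. Leaving out the series table, which holds the same values, and the median over probes for members with 1 probe, 147 of 186 single-member ratios under the alternatives stayed within the scanner error of the main value, 39 moved beyond it and no called one changed sign. Of 264 list counts under the same alternatives, 174 stayed within 1.5 times the main count and 90 did not. The cause of these differences was not tested. Pou5f1 and Sox2 are limited by signal: spots at their level with BP are not well above background.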
